A study of Mus musculus with 8 samples.

Results

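The circular RNAs (circRNAs) described here come from genes for chromatin modifiers and remodellers, the enzymes and complex subunits that write, remove and read marks on histones or move nucleosomes. They were chosen by the name of the host gene alone: every circle whose gene symbol begins with Kdm, Kmt, Hdac, Chd, Arid, Brd, Baz or Kat and a digit, or with Setd, Smarc or Kansl. This gave 534 of the 27391 circles listed, from 85 of 6492 host genes. The measured material was heart tissue of male wild-type (WT) mice, with no transgene in either group, taken 8 weeks after surgery. A sham operation had been performed on 4 mice and transverse aortic constriction (TAC), which narrows the aorta so that the left ventricle pumps against a raised pressure, on the 4 others, with 1 library per mouse. The comparison asks which circles differ under lasting pressure overload. The sources used here give neither the age of the mice nor the chamber sampled.

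A circRNA arises by back-splicing, in which a downstream splice donor joins an upstream acceptor and closes the RNA into a loop, and reads that cross this back-splice junction count the circle and not the linear messenger RNA of the gene. Histone methyltransferases (the Kmt genes and some Setd genes) and demethylases (Kdm) add and remove methyl groups on lysines, acetyltransferases (Kat, with the Kansl subunits) and deacetylases (Hdac) do the same for acetyl groups, and bromodomain proteins (Brd, Baz) read acetylated lysines. The Chd and Smarc genes and some of the Arid genes encode ATPases and subunits of complexes that slide or evict nucleosomes. In the heart, class IIa deacetylases are known as regulators of the hypertrophic gene program. The data here concern circles of these genes and not their proteins or linear transcripts, which were not analysed here.

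Closing junctions of 8 circles are shown because the results below turn on them. Each was read from GENCODE M21 transcripts (mm10, coordinates from 1) in the direction of the gene. The lower-case letters are the last 20 bases of the last exon, the capitals mark the first 20 bases of the first exon, and the change of case is the back-splice.
Kmt2a exons 19 to 20, chr9:44828784-44829271, minus strand: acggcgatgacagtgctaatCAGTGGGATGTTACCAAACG
Setd3 exons 2 to 6, chr12:108157754-108165172, minus strand: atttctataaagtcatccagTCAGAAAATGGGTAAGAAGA
Kat6b exon 2, chr14:21516626-21517498, plus strand: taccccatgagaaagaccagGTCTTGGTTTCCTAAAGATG
Kat6b exons 8 to 12, chr14:21626719-21637640, plus strand: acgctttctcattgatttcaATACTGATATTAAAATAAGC
Kansl1 exons 3 to 4, chr11:104368680-104378826, minus strand: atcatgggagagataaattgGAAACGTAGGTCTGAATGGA
Arid1a exons 2 to 4, chr4:133719537-133723051, minus strand: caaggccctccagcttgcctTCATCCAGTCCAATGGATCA
Chd2 exons 3 to 5, chr7:73514090-73519708, minus strand: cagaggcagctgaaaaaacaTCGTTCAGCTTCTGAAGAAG
Baz2b exons 2 to 3, chr2:60001506-60006189, minus strand: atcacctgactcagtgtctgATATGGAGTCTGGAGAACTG
The Setd3, Kat6b exon 2 and Baz2b circles carry the start codon of their gene, while the Kmt2a, Kansl1, Arid1a, Chd2 and Kat6b exons 8 to 12 circles lie wholly in coding sequence. The spliced lengths are 301 nt for Kmt2a, 682 nt for Setd3, 873 and 636 nt for the Kat6b circles, 241 nt for Kansl1, 780 nt for Arid1a, 381 nt for Chd2 and 198 nt for Baz2b.

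Libraries differed within the groups in depth and in reads per circle. Back-spliced read totals were 40796, 3963, 17890 and 100142 in sham replicates 1 to 4 and 33132, 1119, 21074 and 36120 in TAC replicates 1 to 4. In the shallow libraries, sham replicate 2 and TAC replicate 2, 1 read was worth 4.54 and 5.77 normalised reads (reads divided by the size factor of the library), against 0.195 to 1.03 elsewhere, so that a listed 0 there allows up to 13.6 and 17.3 (3 reads, counting error only). Sham replicate 4 stood apart in another way: 5.61% of its circles rested on 1 read, and its median circle had 8 reads against 1 or 2. The share of circles on 1 read was 44.9% to 55.3% in the other sham libraries and 56.6% to 64.3% in the TAC libraries. Every limma and edgeR count of calls is therefore given with all 8 libraries and again without both shallow libraries. Heart muscle was represented by circles of 10 of 12 cardiomyocyte markers, with summed levels of 166 to 800 normalised reads in sham and 277 to 1676 in TAC libraries (Tnni3 and Pln were without a circle). Sums of 5 of 8 fibroblast markers were 1.66 to 4.54 in sham and 0 to 1.49 in TAC libraries, those of 8 of 8 endothelial markers 12.1 to 40.9 and 5.77 to 44.5, and those of 3 of 8 leukocyte markers 4.93 to 17.4 and 9.26 to 11.5. The part of cell composition in the results below was not tested, and in whole tissue fewer cells of a type and less circular RNA per cell cannot be told apart.

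Circles of chromatin genes held 1.41% to 2.59% of the back-spliced reads of each library. They had 578, 93, 252 and 1606 reads in sham replicates 1 to 4 and 519, 29, 379 and 636 in TAC replicates 1 to 4, together 4092 of 254236 (1.61%). As a share of the library this was 1.42% (95% Wilson interval 1.31 to 1.54), 2.35% (1.92 to 2.87), 1.41% (1.25 to 1.59) and 1.60% (1.53 to 1.68) in sham. In TAC it was 1.57% (1.44 to 1.71), 2.59% (1.81 to 3.70), 1.80% (1.63 to 1.99) and 1.76% (1.63 to 1.90). The mean was 1.69% ± 0.444 in sham and 1.93% ± 0.453 in TAC (SD, n = 4 each), a difference of 0.235 percentage points that is smaller than either SD. Those SDs include the shallow libraries, whose intervals are wide. Without both of them the difference was 0.232 percentage points, with shares of 1.41% to 1.60% in sham and 1.57% to 1.80% in TAC. The highest share of each group came from its shallow library, and the groups overlapped. The summed level was 291 ± 99.5 normalised reads in sham and 337 ± 113 in TAC.

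**Figure D1:**
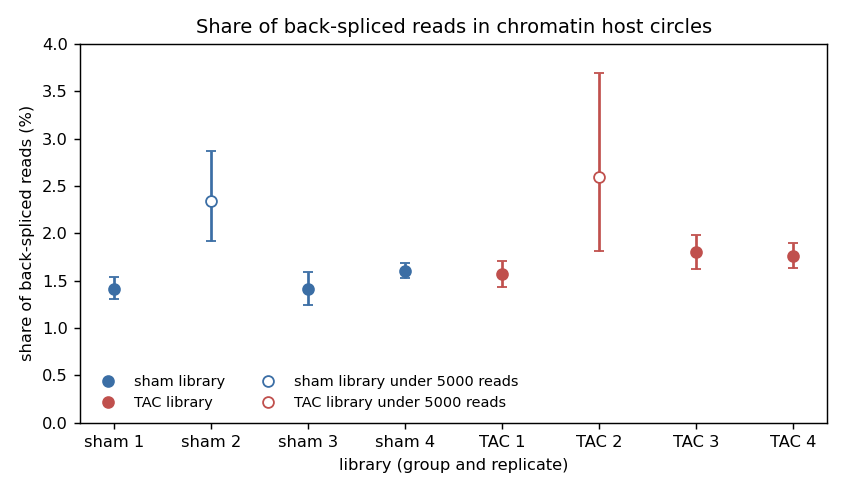
Share of back-spliced reads (percent, y axis) that fell in circles of chromatin modifier and remodeller genes in each of the 8 libraries (x axis), with 95% Wilson intervals, which cover counting error only. Open points are the libraries under 5000 reads. The 6 deeper libraries lie between 1.41% and 1.80%, and the open points at 2.35% and 2.59% have the widest intervals.

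The 85 hosts were most of the genes that carry such names: 105 protein-coding genes in the RefSeq table match the name pattern, and 20 of them had no circle listed, among them Hdac1, Kat2a, Brd7, Brd9, Smarcd2, Smarcd3 and Setd7. A chromatin host gave 6.28 circles on average, against 4.22 for all hosts. Of the 534 circles, 516 were exonic and 18 intronic (3.37%, against 4.84% of all circles). Their median spliced length was 522.5 nt, close to the 502 nt of all circles, and both had a median of 4 exons. A circle began at exon 2 of its transcript in 16.3% of chromatin circles and in 23.1% of all, and 43.4% had a length that is a multiple of 3, against 38.0% of all. The start codon was inside 10.9% of chromatin circles and 10.3% of all. Most chromatin circles were rare: 332 (62.2%, against 61.7% of all) were seen in a single library and 260 rested on 1 read in the whole table.

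A few circles carried much of the signal. The 8 circles with the largest means held 1423 of the 4092 reads (34.8%), and 10 hosts held 55.8%. Chd2 had the most circles, 26, of which 17 were seen in 1 library, followed by Kmt2c with 23, Hdac9 with 19, and Smarca2 and Smarcc1 with 18 each. Only 1 chromatin circle, Kat6b exon 2, was seen in all 8 libraries, and 11 were seen in 7. Circles of a gene often reused a splice site: 71.7% shared a border with another circle, against 69.6% of all circles, so that members of a host are not independent of each other. At Kansl1, 3 circles with 232 reads, 82.0% of the gene's, began at the border of exon 3, and at Kat6b 4 circles with 187 reads (54.4%) ended at the border of exon 12.

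Summed by family, the libraries of the sham and TAC groups overlapped in all 11 families. The largest sums belonged to the demethylases (Kdm, 110 circles of 16 hosts) with 43.9 ± 24.4 normalised reads in sham and 55.3 ± 13.5 in TAC, and to the Kmt methyltransferases (58 circles of 7 hosts) with 48.3 ± 12.1 and 50.9 ± 34.1 (SD, n = 4 each). The smallest was that of Brd (13 circles of 5 hosts) with 7.35 ± 13.3 and 7.83 ± 3.33. TAC replicate 2 was at 0 for Kmt, Setd, Arid and Baz, where a 0 allows up to 17.3 by counting error. The other TAC libraries had 64.8 to 71.9 for Kmt, 40.1 to 42.4 for Setd and 29.7 to 40.1 for Arid, all above that limit. Only for Baz, with 9.54 to 13.4, did they lie within it. Without both shallow libraries, the 3 TAC sums lay above the 3 sham sums in Kmt, Setd, Brd, Chd, Smarc and Arid, and overlapped in the other 5. Most hosts of the whole table moved the same way there. Limma changes without both shallow libraries were positive for 2484 of all 3648 hosts tested (median 0.68) and for 45 of 58 chromatin hosts (median 1.07). The family sums are a description and carry no test.

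**Figure D2:**
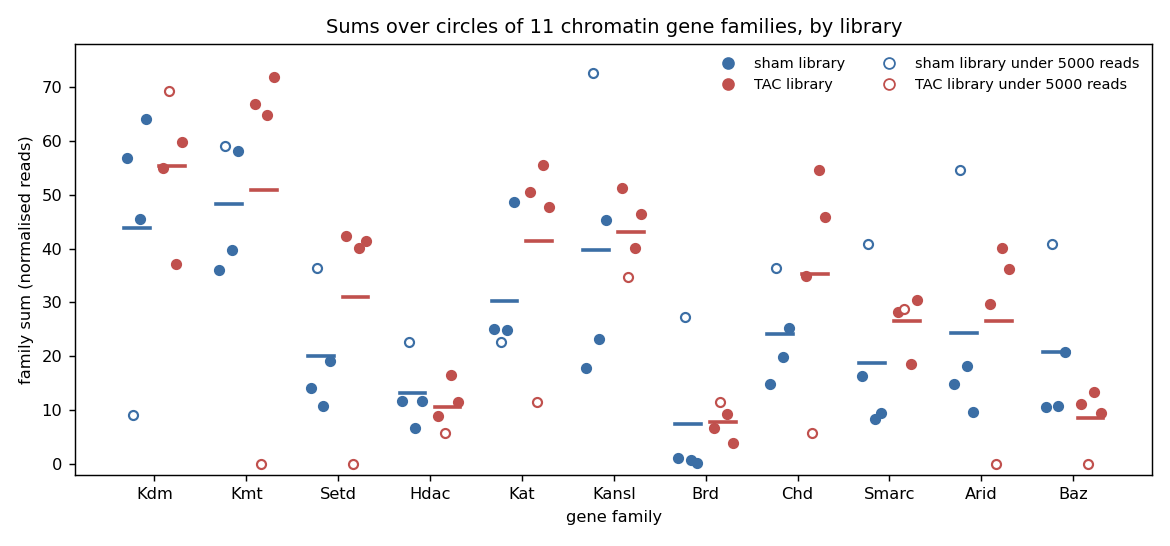
Family sums in normalised reads (y axis) for 11 gene families (x axis). Each point is 1 library, open points are libraries under 5000 reads, and each bar is the mean of 4 libraries. The groups overlap in every family, and the open points are often the highest or lowest of their group, as for Brd in sham (27.3) and Setd in TAC (0).

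Among the methyl writers, single circles made up most of the signal of Kmt2a and Setd3. Kmt2a, a histone H3 methyltransferase of the trithorax type, was the host with the most normalised reads, and its circle of exons 19 to 20 accounted for 93.2% of them. The circle had 17.1, 22.7, 27.3 and 36.8 normalised reads in sham replicates 1 to 4 and 21.6, 0, 37.1 and 38.2 in TAC. Apart from the 0 of the shallow TAC library, both groups covered the same range. The limma change was -1.51 ± 1.14 (SE) with an adjusted p of 0.834, and without both shallow libraries the edgeR change was 0.08 ± 0.40 with an adjusted p of 0.901. Kmt2c, which methylates histone H3 at enhancers, summed to 12.9, 4.54, 9.11 and 16.1 in sham and 25.3, 0, 15.4 and 19.1 in TAC over 23 circles. Its exons 21 to 25 held 61.9% of that sum.

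Setd3 belongs to the family by its SET domain but is best known as the methyltransferase of a histidine in actin. Its circle of exons 2 to 6, which holds 97.2% of the gene's normalised reads, had 9.10, 18.2, 3.31 and 10.3 in sham and 29.7, 0, 22.6 and 31.8 in TAC. All 3 deeper TAC libraries were above every sham library. With all 8 libraries the limma change was -0.14 ± 1.33 (adjusted p 0.997) and the edgeR change 1.13 ± 0.76 (adjusted p 0.326). Without both shallow libraries edgeR gave 1.61 ± 0.46 with an adjusted p of 0.0161. Setd2, which trimethylates histone H3 behind RNA polymerase, summed to 1.14, 18.2, 4.97 and 6.81 in sham and 9.67, 0, 10.3 and 5.72 in TAC, with overlapping groups.

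Among the methyl erasers, Kdm2a, Kdm5c and Kdm4c gave the most reads. Kdm2a, a demethylase of histone H3 with a CpG-binding domain, had sums of 12.1, 4.54, 10.8 and 7.98 in sham and 13.4, 5.77, 12.4 and 12.1 in TAC over 12 circles. The Kdm5c circle of exons 11 to 12 (345 nt), from an X-linked demethylase of active promoter marks, had 6.45, 0, 9.11 and 11.5 in sham and 2.23, 11.5, 1.03 and 1.27 in TAC. The value of 11.5 in TAC replicate 2 rests on 2 reads, and the 3 deeper TAC libraries lay below the 3 deeper sham libraries. The Kdm4c circle of exons 6 to 8 (292 nt), from a demethylase of repressive histone H3 marks, had 5.69, 0, 3.31 and 9.34 in sham and 1.49, 0, 0 and 1.27 in TAC. A Kdm3b circle of exons 2 to 6 had 27 reads in sham replicate 4 and 6 in TAC replicate 2 but none in the other TAC libraries. Its limma change was -0.84 ± 1.52 (adjusted p 0.957), and without both shallow libraries it was called lower, with 33 sham reads and no TAC read (adjusted p 0.0422), having met the filter through sham alone.

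Among the acetyl writers, 3 Kat6b circles showed different patterns over the libraries. KAT6B is a MYST-type histone acetyltransferase. Its exon 2 circle had 6.07, 9.09, 1.66 and 7.0 normalised reads in sham and 22.3, 11.5, 15.4 and 21.6 in TAC, resting on 16, 2, 2 and 36 and on 30, 2, 15 and 34 reads. Every TAC library was above every sham library, with means of 5.95 ± 3.13 and 17.7 ± 5.15. The limma change was 1.72 ± 1.29 (adjusted p 0.834) and the edgeR change 1.49 ± 0.75 (adjusted p 0.167), so neither passed the threshold of 0.05. Exons 8 to 12 gave 5.69, 0, 9.94 and 20.4 in sham and 10.4, 0, 11.3 and 5.72 in TAC, with overlapping groups. Exons 4 to 12 (1023 nt) gave no read in any sham library and 5, 0, 6 and 7 reads in TAC. Summed over its 14 circles, Kat6b had 15.9 ± 8.88 in sham and 30.1 ± 12.6 in TAC (limma change 0.90 ± 0.97).

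Kat2b encodes the acetyltransferase PCAF. Its circle of exons 2 to 5 (548 nt) had 6.83, 4.54, 5.80 and 9.34 in sham and 1.49, 0, 5.15 and 1.27 in TAC. The groups overlapped only through sham replicate 2 and TAC replicate 3. The edgeR change was -1.86 ± 0.84 with an adjusted p of 0.111.

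Kansl1, Kansl2 and Kansl1l belong to a family of scaffold and subunit genes of the NSL acetyltransferase complex. The Kansl1 circle of exons 3 to 4 had 2.65, 9.09, 9.11 and 28.6 normalised reads in sham and 2.97, 0, 5.15 and 1.91 in TAC, resting on 7, 2, 11 and 147 and on 4, 0, 5 and 3 reads. It made up 147 of the 175 Kansl1 reads of sham replicate 4 but 7 of 24 in sham replicate 1. Over its 14 circles Kansl1 summed to 19.2 ± 11.6 in sham and 18.8 ± 7.67 in TAC. The group means of the gene total therefore did not share the difference of this circle, though TAC replicate 2 had the highest TAC sum, 28.9, from 5 reads. Without both shallow libraries the change of the gene total was -0.61 ± 0.44 in edgeR and 0.01 ± 0.49 in limma. Of 11 Kansl1 circles with 2 or more reads, 7 had the larger mean in TAC and 4 in sham. Among the 7, the circle of exons 2 to 4 had 4 reads in TAC replicate 2 and 1 each in TAC replicates 1 and 3. Kansl1l, a paralog of Kansl1, had sums of 5.69, 22.7, 6.62 and 7.78 in sham and 17.8, 5.77, 19.6 and 17.8 in TAC. There the shallow library was the highest of the sham group and the lowest of the TAC group.

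**Figure D3:**
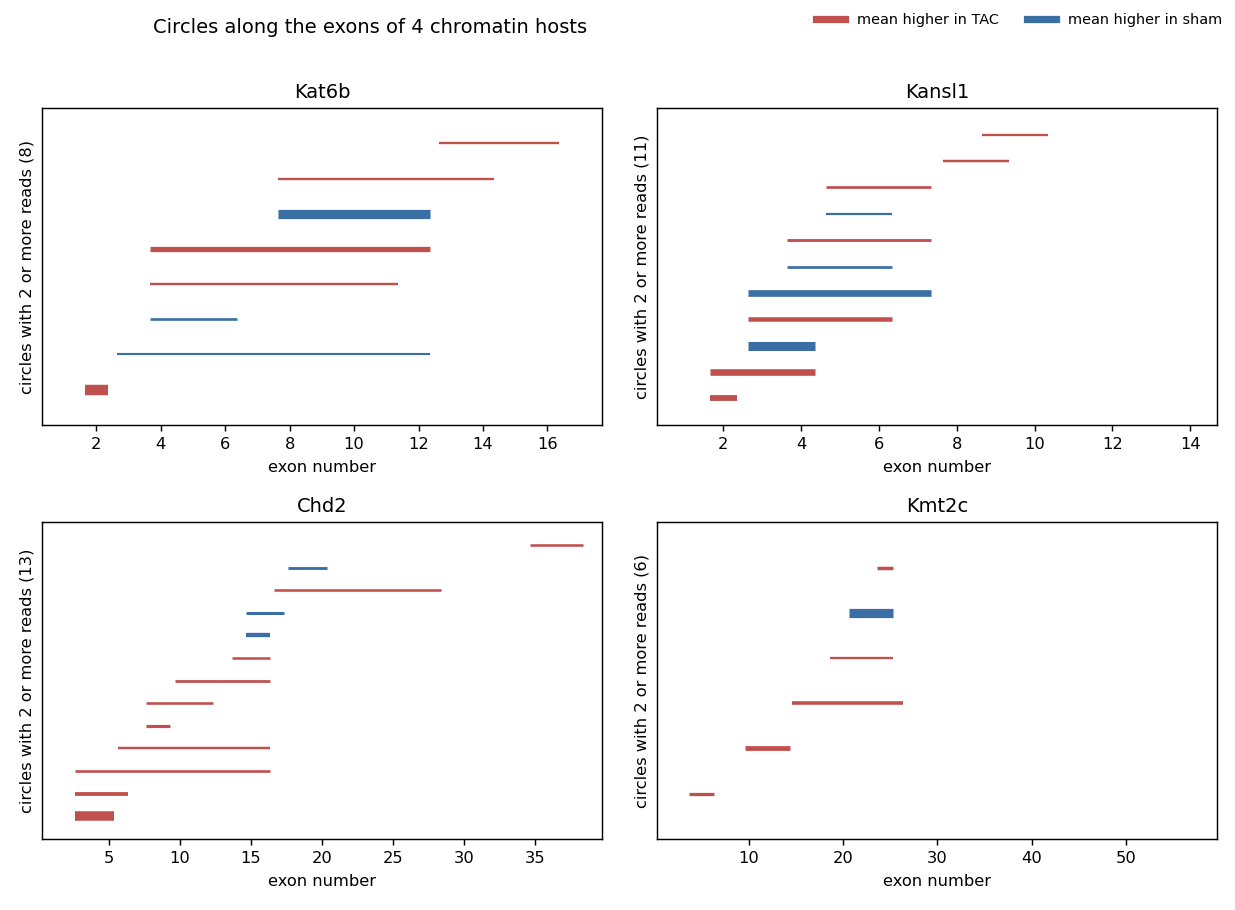
Circles with 2 or more reads along the exons (x axis, exon number) of Kat6b, Kansl1, Chd2 and Kmt2c. Each bar is 1 circle, thicker bars have a larger mean over 8 libraries, and the colour shows which group mean is larger, with no test. The larger mean was in TAC for 5 of 8 Kat6b, 7 of 11 Kansl1, 10 of 13 Chd2 and 5 of 6 Kmt2c circles, while the thickest bars of Kansl1 and Kmt2c had the larger mean in sham. The same share over all circles is not given here, so these counts have no background. In the means, 1 read of a shallow library weighs 4.54 or 5.77, so the colour of a rare circle can rest on few reads.

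The deacetylases gave few reads: 47 circles of 8 hosts held 151. Hdac9, a class IIa deacetylase that represses MEF2 targets in muscle, had sums of 6.45, 18.2, 0.828 and 3.31 in sham and 6.69, 5.77, 8.23 and 5.09 in TAC over 19 circles. Hdac4, of the same class, had 1.14, 4.54, 0.828 and 0 in sham and 0.744, 0, 1.03 and 5.09 in TAC. Neither separated the groups. The Hdac family sum was 13.2 ± 6.79 in sham and 10.7 ± 4.52 in TAC, and the order turned without both shallow libraries, with 10.02 ± 2.94 and 12.3 ± 3.84 (n = 3 each).

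Of the readers of acetyl marks, Brd2, a BET protein, was seen in TAC replicates 2 and 3 only, with 2 reads and 1 read. Baz1b and Baz2b encode bromodomain subunits of ISWI remodellers. The Baz2b circle of exons 2 to 3 had 4.93, 22.7, 1.66 and 15.8 in sham and 1.49, 0, 2.06 and 0.636 in TAC. Its limma change was -3.12 ± 1.60 (p 0.0508, adjusted p 0.834), and the groups overlapped through sham replicate 3. The Baz1b circle of exons 14 to 15 (296 nt) had 7, 0, 7 and 16 reads in sham and 0, 0, 0 and 1 in TAC. The Baz family sum was 20.8 ± 14.2 in sham and 8.52 ± 5.89 in TAC, but 14.1 ± 5.85 and 11.4 ± 1.93 without both shallow libraries (n = 3 each).

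Among the remodellers, Chd2, an ATPase of the chromodomain family, gave 7.20, 4.54, 14.1 and 16.5 in sham and 18.6, 5.77, 35 and 28 in TAC. Its circle of exons 3 to 5 had 4.93, 0, 7.45 and 6.81 in sham and 11.9, 5.77, 17.5 and 15.9 in TAC, where the lowest TAC value, from 1 read, lay within the sham range. The limma change of this circle was 2.15 ± 1.45 (adjusted p 0.834). Chd9, a relative of Chd2, had 1.52, 31.8, 1.66 and 0.584 in sham and 10.4, 0, 8.23 and 8.90 in TAC. The shallow sham library lay far above the other 3. The 0 of the shallow TAC library allows up to 17.3 by counting error, and the other TAC values lie within that limit. Chd7, another chromodomain ATPase, gave 0.379, 0, 0 and 0.195 in sham and 1.49, 0, 3.09 and 4.45 in TAC (limma change 2.30 ± 1.33).

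Arid1a, the DNA-binding subunit of canonical BAF (SWI/SNF) complexes, had the widest contrast between libraries. Its circle of exons 2 to 4 had 0.758, 45.4, 0 and 0 in sham and 20.8, 0, 26.8 and 17.8 in TAC, resting on 2, 10, 0 and 0 and on 28, 0, 26 and 28 reads. The 3 deeper TAC libraries held 82 of these reads and the 3 deeper sham libraries 2, while the shallow sham library was the highest of all 8. With all libraries the limma change was 2.56 ± 1.59 (adjusted p 0.834) and the edgeR change 2.05 ± 0.97 (adjusted p 0.14). Arid1a also had a circle of exons 9 to 10, which gave 3 and 5 reads in sham replicates 3 and 4 and none in the other libraries. Arid1b, the alternative subunit, summed to 3.17 ± 2.28 in sham and 4.04 ± 3.20 in TAC.

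Smarcc1 and Smarcc2 encode core subunits of BAF and Smarca2 its ATPase BRM. Smarcc1 summed to 6.07, 18.2, 2.48 and 5.25 in sham and 6.69, 0, 7.21 and 5.72 in TAC. Smarca2 had 2.65, 18.2, 0.828 and 0 in sham and 8.92, 5.77, 4.12 and 10.8 in TAC (edgeR change 1.55 ± 0.74, adjusted p 0.18), and its groups overlapped through sham replicate 2. Smarcc2 was at 0.758 in sham replicate 1 and at 0 in the other sham libraries, with 2.97, 0, 1.03 and 1.27 in TAC. Smarcad1, a remodelling ATPase outside BAF, gave 1.52, 0, 0.828 and 1.56 in sham and 4.46, 17.3, 1.03 and 5.09 in TAC (limma change 2.45 ± 1.60), and 17.3 rests on 3 reads of the shallow TAC library.

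**Figure D4:**
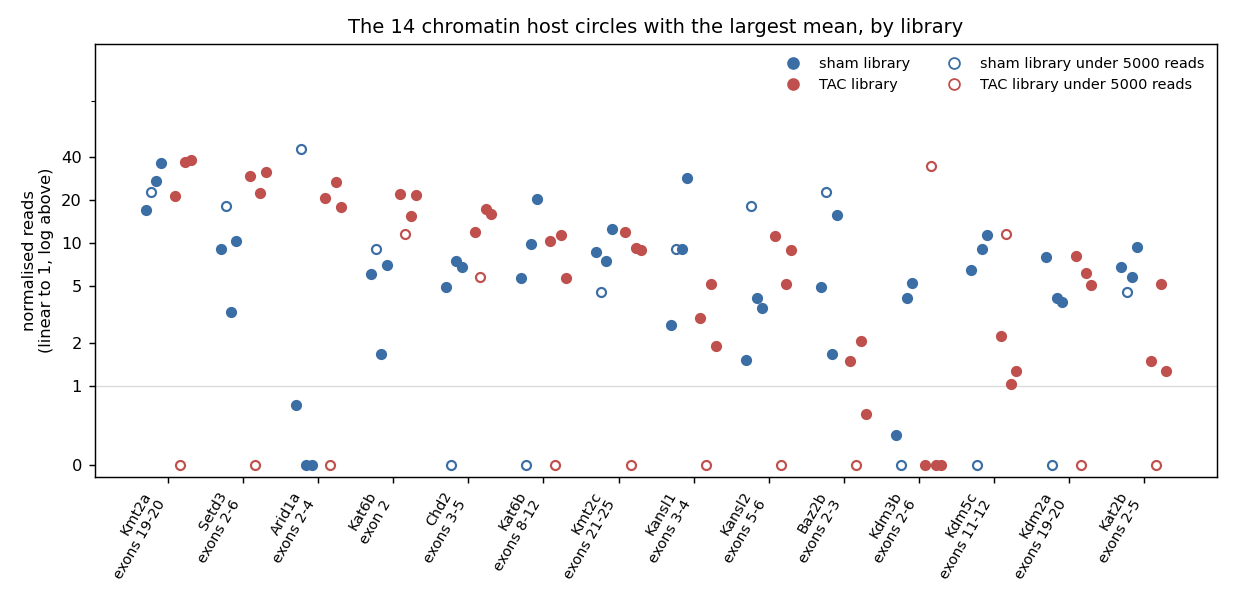
Normalised reads (y axis, linear to 1 and logarithmic above) of the 14 chromatin circles with the largest means, 1 point per library, open for libraries under 5000 reads. The Kat6b exon 2 circle is the only one of the 14 whose 4 TAC points, 11.5 to 22.3, lie above all 4 sham points, 1.66 to 9.09.

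Tested over all circles with limma on log2(value + 0.195), 0 of the 72 chromatin circles above 0 in at least 4 libraries passed an adjusted p of 0.05. The background was 1 of 3735 circles (0.0268%). At an unadjusted p under 0.05 there were 2 chromatin circles, Kmt2a exons 21 to 24 and Kansl1l exons 2 to 6, both higher in TAC, and 152 among all circles. The Kmt2a circle rested on 0, 0, 0 and 1 reads in sham and 7, 0, 2 and 3 in TAC. The Kansl1l circle had 0, 0, 0 and 2 in sham and 4, 0, 5 and 3 in TAC. Both thus met the filter of 4 libraries mainly through TAC, which favoured that direction. Among the 72 chromatin circles, positive changes numbered 38 and negative ones 34, with a median of 0.10, against 0.15 over all circles. By host, 0 of 51 passed, against 1 of 2967 (0.0337%), and none had an unadjusted p under 0.05, against 90 of all hosts. There were 31 positive and 20 negative hosts, with a median of 0.24 against 0.13 over all. The groups of 4 libraries did not overlap for 1 chromatin circle with TAC above (0.884% of all circles tested) and for 0 with TAC below (2.22%). Among hosts this held for 0 in either direction (1.35% and 1.89% of all hosts). In these fits the SE and p of limma followed the trend with intensity over all features and not the spread of a single circle between mice.

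On reads recovered from the deposited values, the edgeR quasi-likelihood test called 1 of 12 chromatin circles, against 94 of 717 circles (13.1%). The call was Kansl1 exons 3 to 4, lower in TAC with a log2 change of -2.35 ± 0.77 and an adjusted p of 0.0281, and 5 of the 12 had an unadjusted p under 0.05, against 204 of the 717. The Kansl1 call was lost without sham replicate 3 (change -2.38, adjusted p 0.121), where 39 of 1065 circles were called in all. It was also lost without TAC replicate 1, 3 or 4 (changes -2.07, -2.59 and -1.82, adjusted p 0.279, 0.247 and 0.306). Calls were few over the whole table in those fits, with 9 of 708, 0 of 1111 and 9 of 721 circles. The Kansl1 circle was not tested without sham replicate 4, which holds 147 of its 179 reads. Its limma change without that library was -1.95 ± 1.82 (adjusted p 0.995). Without sham replicate 4, edgeR called 0 of 13 chromatin circles, against 34 of 694 circles, and 0 of 24 chromatin hosts, against 19 of 976 hosts. Limma called 0 of 52 chromatin circles there, against 1 of 3106, and 0 of 50 hosts, against 1 of 2686. By host, edgeR called 0 of 25, against 84 of 1020 (8.24%), with 5 of the 25 at an unadjusted p under 0.05, against 245 of the 1020: Arid1a and Smarca2 with a positive change and Kdm5c, Kdm4c and Baz1b with a negative one. DESeq2 on the same reads called 0 of 29 circles, against 23 of 1367 (1.68%), and 0 of 24 hosts, against 30 of 953 (3.15%).

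Without sham replicate 2 and TAC replicate 2, more circles passed, as in the whole table. The edgeR test called 8 of 17 chromatin circles, against 30.0% of all circles tested. Higher in TAC were Arid1a exons 2 to 4 by 6.06 ± 0.82 on the log2 scale (adjusted p 0.000226), Kat6b exon 2 by 1.70 ± 0.50 (0.0191) and Setd3 exons 2 to 6 by 1.61 ± 0.46. The fourth, Kat6b exons 4 to 12, had no sham read and met the minimum count through the TAC libraries alone, so that it could pass only by being higher there. Against 3 reads in each deeper sham library, its mean of 4.78 normalised reads in the deeper TAC libraries would be 3.41-fold higher. That mean rests on 5, 6 and 7 reads, and the ratio allows for no error in TAC and no spread between mice. Lower were Baz1b exons 14 to 15 with -3.77 ± 1.24 (0.0307), Kdm4c exons 6 to 8 with -2.78 ± 0.81 (0.0179), Kdm5c exons 11 to 12 with -2.70 ± 0.64 (0.0060) and Kansl1 exons 3 to 4 with -2.24 ± 0.75 (0.0331). Arid1a had 2, 0 and 0 reads in the deeper sham libraries and also met the minimum count through TAC alone. Reads in the deeper TAC libraries were 0, 0 and 1 for Baz1b and 2, 0 and 2 for Kdm4c. Kdm5c had 3, 1 and 2 there. Baz1b, Kdm4c and Kdm5c thus met the minimum count through sham alone. For each of these circles the filter favoured the direction of the call. By limma 27 of 118 passed, 23 higher and 4 lower, against 17.9% of all circles. The filter of this fit asked for a value above 0 in 3 of 6 libraries, and 20 of the 118 had reads in 1 group alone, 18 with no read in the deeper sham libraries and 2 with none in TAC. Such circles had to differ, and all 20 passed, even with 1 read in each deeper TAC library, as for Hdac9 exons 12 to 16 and Kdm1a exons 3 to 9. Of the 98 with reads in both groups 7 passed, against 349 of 5095 over all circles. These 7 are not free of the filter either. In the deeper sham libraries, Kmt2a exons 21 to 24 had 1 read and Kansl1l exons 2 to 6 and Arid1a exons 2 to 4 had 2 each. Baz1b exons 14 to 15 had 1 read in the deeper TAC libraries. Each of those counts came from 1 library, so the other group alone met the filter. By host, limma called 4 of 58, against 6.06%: Arid1a by 3.98, Chd9 by 2.79, Setd3 by 1.92 and Kansl1l by 1.44, all higher. The edgeR test called 4 of 27, against 21.6%: Arid1a by 3.87, Chd9 by 2.61 and Setd3 by 1.38, higher, and Kdm5c with -2.31, lower.

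The direction of these changes moved with the length of the circle. The 4 circles called higher by edgeR in the 6 deeper libraries were 682 to 1023 nt long and the 4 called lower 241 to 345 nt. Over all circles tested in that fit, the median length was 533.5 nt for positive and 345 nt for negative changes. Chromatin reads came from a median circle length of 375, 592, 357 and 345 nt in sham replicates 1 to 4 and of 646, 437, 636 and 592 nt in TAC. Circles over 1000 nt held 2.46%, 17.2%, 4.78% and 2.72% of chromatin reads in sham and 16.9%, 20.7%, 16.2% and 13.0% in TAC. Over all circles those shares were 2.73%, 13.6%, 2.59% and 2.09% in sham and 16.4%, 8.62%, 13.0% and 10.9% in TAC. Length thus differed between the deeper libraries of the groups, in chromatin circles as in all others.

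**Figure D5:**
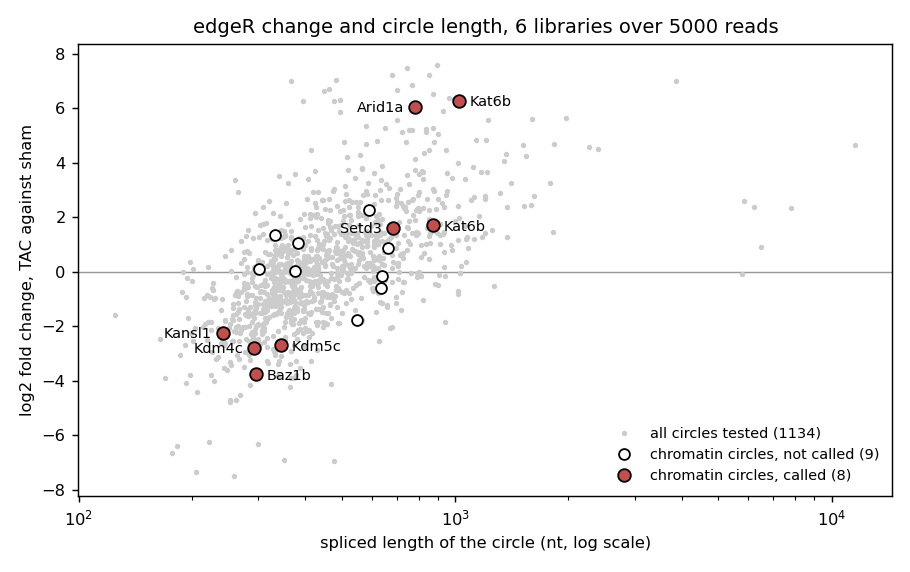
The log2 change between TAC and sham (y axis, edgeR, 6 libraries over 5000 reads) against spliced length (x axis, nt, log scale). Grey points are the 1134 circles tested with a known length, white circles the 9 chromatin circles not called and red circles the 8 called. The 4 called higher are longer than the 4 called lower (the Kat6b point at 6.26 has no sham read, so its height depends on the prior count), as the grey points also rise with length.

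Entering each library's trend with length as an offset changed which chromatin circles passed. Over all 8 libraries, edgeR with the offset again called 1 of 12, against 3.65% of all circles, but it was Kat2b exons 2 to 5, lower in TAC with -2.47 ± 0.70 (adjusted p 0.0492). Kansl1 exons 3 to 4 no longer passed, with -0.92 ± 0.69 (adjusted p 0.457). In the 6 deeper libraries 5 of 17 passed, against 16.9%. Arid1a exons 2 to 4 was higher by 4.77 ± 0.80 (adjusted p 0.000901) and Kdm5c exons 11 to 12 lower with -2.25 ± 0.65 (0.0264), the 2 circles called both with and without the offset. Both had met the minimum count only through the group where they are high, Arid1a through TAC and Kdm5c through sham. Their repeated call is therefore no separate support. Kansl2 exons 5 to 6 was higher by 1.91 ± 0.60 (0.0373), and Kat2b exons 2 to 5 and Kat6b exons 8 to 12 were lower with -2.52 ± 0.67 (0.0172) and -1.75 ± 0.54 (0.0370). The other 6 circles lost their call. Kat6b exon 2 had 0.13 ± 0.47 (0.883), Setd3 exons 2 to 6 had 0.42 ± 0.43 (0.544) and Kansl1 exons 3 to 4 had -0.63 ± 0.69 (0.570). Baz1b exons 14 to 15 had -3.01 ± 1.32 (0.121), Kdm4c exons 6 to 8 had -1.86 ± 0.81 (0.116), and the adjusted p of Kat6b exons 4 to 12 was 0.0516.

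Other genes of histone-modifying and remodelling complexes were taken as hosts only. Of 90 listed partners outside the name pattern, such as the acetyltransferases Ep300 and Crebbp and the methyltransferases Ehmt1, Nsd1, Nsd2 and Ash1l, 69 had a circle (463 circles). With all 8 libraries, 0 of 44 partner hosts passed in limma (23 positive, 21 negative, none at an unadjusted p under 0.05) and 0 of 22 in edgeR (15 positive, 7 negative, 4 at an unadjusted p under 0.05, against 245 of all 1020). Ehmt1, a methyltransferase of histone H3, had the largest partner sum in the mean over all 8 libraries, with 16.4 ± 10.1 normalised reads in sham and 29.9 ± 4.32 in TAC. Nsd2, which dimethylates histone H3, had 13.0 ± 2.97 and 33.0 ± 14.8. Without both shallow libraries 5 of 47 partner hosts passed in limma, all higher, against 6.06% of all hosts, and 6 of 28 in edgeR, 5 higher and 1 lower, against 21.6%.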

How the data were processed

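Back-spliced reads were measured in 8 heart libraries, 4 sham and 4 TAC, and library numbers follow accession order. The deposited table holds signal values, in which the authors scaled the reads of each circle by a size factor of the library (0.173 to 5.14); this follows from the values. Per the submitters' processing notes, the build was mm10 and HISAT2, StringTie and DESeq2 were named, without versions or roles, and the sources used here give neither the circRNA caller nor the strand. Divided by the smallest value of its library, each value came out whole (100% within 0.001), which recovered the reads. The members and gene lists were chosen with earlier results of these data known.

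The main test was limma 3.58.1 with an intensity trend on log2(value + 0.195) for features above 0 in at least 4 of 8 libraries, and its fold changes are on that scale. As the values are not counts, the count test, edgeR 4.0.16 (quasi-likelihood, robust, minimum count 5, minimum total 15) on recovered reads, and DESeq2 1.42.0 were alternatives. Benjamini-Hochberg adjustment ran over all features, with a threshold of 0.05. Host and family sums add all circles of a gene or family. Left-out libraries, TMM scaling, a pseudocount of 1, other filters and a length trend (robust loess, span 0.5) were tried, and the edgeR alternatives that leave out libraries or fit length were chosen after seeing the data. Intervals and the floor of 3 reads cover counting error only. Exon numbers, lengths and sequences come from GENCODE M21, after the table's starts, counted from 0, were raised by 1, which gave a length for 99.6% of exonic circles. Gene names were matched to RefSeq. Scripts were tested on simulated data. Named hosts are the 2 with the largest mean per family, those past the threshold and those with the smallest p, and named circles are the 8 with the largest mean and those past the threshold. Of the hosts this rule picks, 1 is not reported here. Kdm3b, Kdm4c and Kansl2, and circles described for a difference without a call, were chosen after their values were seen.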

Additional observations from a re-analysis of the deposited data

Results flagged for a closer look

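A library stood far from the other 3 of its group, by the gap between the extreme library and its nearest neighbour against the whole range of the group (Dixon's 95% criterion), in 14 of 87 groups tested (16.1%). Chance flags about 1 in 20 groups. In 6 of them the library was sham replicate 2 and in 6 TAC replicate 2, the libraries under 5000 reads.

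Among family sums, in normalised reads, the TAC replicate 2 value was 0 for Kmt and 0 for Setd, sham replicate 4 had 48.6 for Kat and sham replicate 2 had 27.3 for Brd. Host sums of sham replicate 2 stood apart for Kansl1l (22.7), Chd9 (31.8), Smarca2 (18.2) and Arid1a (50.0). Those of TAC replicate 2 stood apart for Kdm2a (5.77), Kdm5c (28.9), Kansl1l (5.77) and Brd2 (11.5). Smarcc2 in sham replicate 1 (0.758) was the only sham value of that host above 0. The Arid1a circle of exons 2 to 4 had 45.4 in sham replicate 2. Their part in the results was not tested beyond the values given without these libraries.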

How the results depend on the processing

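No paired analysis was possible because the replicate numbers follow accession order and link no sham mouse to a TAC mouse.

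The count of 0 chromatin circles called by limma became 1 with edgeR and 27 without both libraries under 5000 reads, and ranged from 0 to 1 when single libraries were left out (the 1, without TAC replicate 2, was Arid1a exons 2 to 4, adjusted p 0.0183 in limma, among 41 of 3685 circles called). The edgeR count of 1 circle ranged from 0 to 6 with single libraries left out (6 without sham replicate 2, 4 without TAC replicate 2 and 2 without sham replicate 3, where 248 of 1134, 230 of 1216 and 39 of 1065 circles were called in all), and was 8 without both shallow libraries and 5 there with the length offset. The count of 0 hosts became 4 without both shallow libraries in limma and 4 in edgeR, whose range over single libraries was 0 to 4 (4 without sham replicate 2, among 230 of 1381 hosts). The log2 ratio of the Brd sums, 0.09, became 3.19 without both shallow libraries and ranged from -0.32 to 3.44 with single libraries left out (3.44 without sham replicate 2). The other family ratios and the share moved by less than 1 SD, a wide margin here: the sign of the ratio held in every alternative for 4 of 11 families (Setd, Chd, Smarc and Baz). Without both shallow libraries Hdac went from -0.31 to 0.29, Kdm from 0.33 to -0.13 and Baz from -1.29 to -0.31, and without sham replicate 2 alone Hdac was 0.089. The share difference of 0.235 percentage points was 0.015 without TAC replicate 2, 0.453 without sham replicate 2 and 0.232 without both. The pseudocount, the filters, TMM scaling, a fit with no intensity trend and DESeq2 left the limma counts at 0.

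Of 31 named hosts and circles tested, 14 kept the sign of their change in every setting run and 17 did not, and none of the 31 was called in the main test. Limma log2 changes with single libraries left out ran from -1.24 to 0.90 for Kdm5c, -2.09 to 0.50 for Kmt2a, -1.34 to 1.0 for Kmt2c, -0.86 to 1.60 for Setd3, -1.40 to 0.64 for Setd2, -0.20 to 1.19 for Hdac9, -0.84 to 0.78 for Hdac4, -1.88 to 0.078 for Kat2b, -0.19 to 0.44 for Kansl1, -0.39 to 1.65 for Chd9, -1.68 to 0.067 for Smarcc1 and -0.91 to 1.40 for Arid1b. For circles they ran from -2.22 to 0.32 for Kmt2a exons 19 to 20, -0.80 to 1.65 for Setd3 exons 2 to 6, -1.64 to 1.19 for Kat6b exons 8 to 12 and -1.65 to 0.34 for Kmt2c exons 21 to 25. Without both shallow libraries the sign turned for Kdm5c (-2.10), Kmt2a (0.44), Kmt2c (0.65), Setd3 (1.92), Setd2 (1.22), Hdac4 (1.51), Smarcc1 (0.57) and the circles of Kmt2a (0.27), Setd3 (2.0) and Kmt2c (0.083). With edgeR it turned for Kdm2a (-0.15), Kdm5c (-1.48), Kmt2c (0.11), Setd3 (1.01), Setd2 (0.12), Kansl1 (-0.45), Arid1b (-0.087) and the Setd3 circle (1.13). With DESeq2 it turned for Kdm5c (-0.45), Kmt2c (0.24), Setd3 (1.09), Kansl1 (-0.31), Chd9 (-0.024) and the Setd3 circle (1.28), with TMM scaling for Kdm5c (-0.12), Hdac4 (0.10) and Kansl1 (-0.0093), and with a pseudocount of 1 for Kdm5c (-0.10), Setd3 (0.29) and the Setd3 circle (0.33). The cause was not tested. Depth limits most values: in the shallow libraries a circle at 0 may still reach 13.6 or 17.3 normalised reads.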
